A study of Mus musculus with 30 samples.

Results

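The comparison concerns injured kidneys, those of AAI-exposed Trp53(+/-) mice set against those of AAI-exposed Trp53(+/+) mice, with 5 arrays per genotype. The members are these 10 arrays of the 30 in the series, taken by their sample titles and not by any measured value. Trp53(+/-) mice carry 1 functional copy of Trp53 and 1 copy in which a neomycin cassette replaces part of the gene, whereas Trp53(+/+) mice carry 2 functional copies. All animals were C57BL/6 males aged 9 to 11 weeks. Aristolochic acid I (AAI), a plant nephrotoxin and carcinogen, was injected intraperitoneally at 3.5 mg/kg bw on each of 6 days, and kidneys were taken 24 h after the last injection. AAI-exposed Trp53(-/-) kidneys, which have no functional copy, and water-injected kidneys of each genotype (5 arrays each) gave levels beside the comparison, entered the estimate of the spread, and were compared with each other where stated. RNA came from a piece of whole kidney, so tubule, stromal, vascular and immune cells were measured together, and fewer cells of a type cannot be told apart from less RNA per cell. The deletion is carried by every cell of the mouse, and the Trp53 transcript was not analysed here.

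The proximal tubule reabsorbs most of the filtered solutes and protein and secretes organic anions and cations through transporters of its brush border and basolateral membrane. AAI enters its cells through basolateral organic anion transporters, and injured tubule cells lose their transporters and metabolic enzymes while they begin to make injury proteins such as lipocalin 2 and kidney injury molecule 1. Stromal cells around injured tubules can become myofibroblasts, which contain smooth muscle actin and lay down matrix. The p53 protein, stabilised by DNA damage, switches on genes of cell cycle arrest and death such as Cdkn1a and Mdm2.

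Values are log2 signals, on which 1 unit stands for a 2-fold change, and differences are Trp53(+/-) minus Trp53(+/+). The question was which genes differ between the genotypes once both have received AAI. Of 22139 genes, 342 (1.54%) were called at an adjusted p under 0.05 (limma, Benjamini-Hochberg over all genes), with 236 (1.07%) higher and 106 (0.479%) lower in Trp53(+/-) kidneys. At least 2-fold differences were called for 85 genes (0.384%), 72 of them higher and 13 lower. The arrays of the genotypes did not overlap for 530 of all genes (2.39%), 243 higher (1.1%) and 287 lower (1.3%), and of the called genes for 84 higher and 70 lower. The genes with the largest increases included transporters and enzymes of the proximal tubule, and those with the largest decreases included contractile, matrix and injury genes. Serpina3n, Sytl2, Tmem45a and Gm8439, which are in none of the gene lists used here, were lower too. The median difference over all genes was -0.007. The 10 arrays had medians of 5.934 to 5.974 and arrays of 1 group correlated at 0.9756 to 0.9881. The proximal tubule gene Kap, an abundant kidney transcript, averaged 12.88 in Trp53(+/-) and 12.37 in Trp53(+/+) kidneys.

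The number of calls depended on the arrays that set the spread. The fit took its spread from all 30 arrays. The called genes varied more between AAI-exposed animals than between water-injected ones, with median SDs of 0.259 in Trp53(+/-) AAI, 0.363 in Trp53(+/+) AAI and 0.166 to 0.208 in the 3 water groups. A fit of the 10 arrays alone called 4 genes, Slc22a19, Akr1c14, Lox and Ctsk, with adjusted p = 0.0493 for each. All 342 genes had an unadjusted p under 0.05 in that fit, as did 2380 of all 22139 genes. An adjusted p under 0.1 was reached by 121 of the 342 and by 138 of all genes. Both fits have the same mean differences from these 10 arrays, so these counts are no independent support for the calls. When each of the 10 arrays was left out in turn, 133 to 510 genes were called, and 109 of the 342 were called every time, 84 higher and 25 lower. In the sentences that follow, "called in 10 of 10" refers to these leave-out fits.

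**Figure D1:**
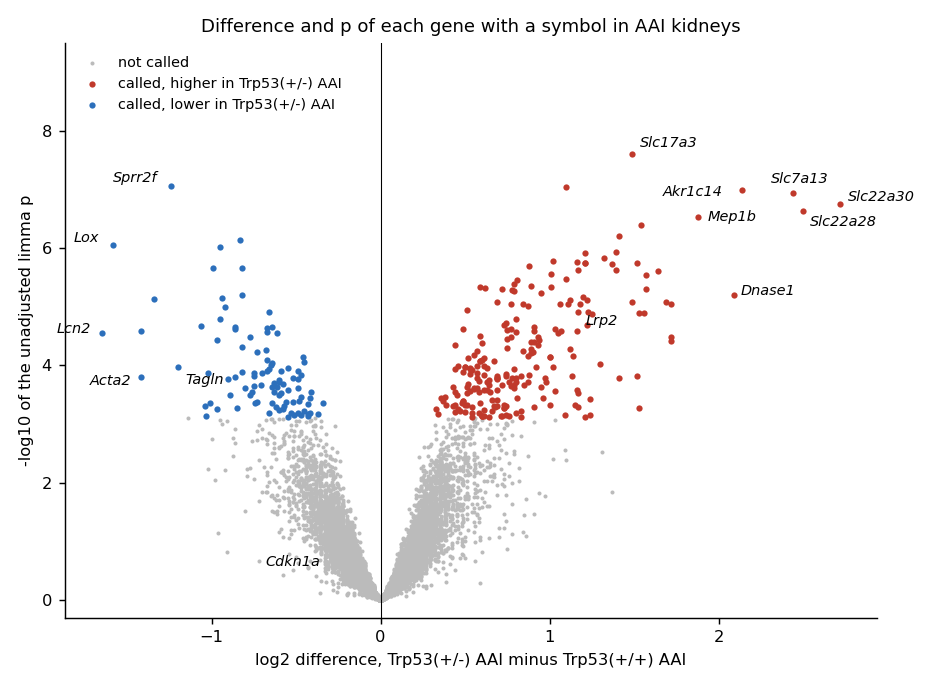
Log2 difference (horizontal) and -log10 of the unadjusted limma p (vertical) of each gene with a symbol, with called genes in colour. Called genes reach 2.72 on the higher side, where Slc22a30 lies, and -1.65 on the lower side, where Lcn2 lies.

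Slc22a30 and Slc22a28, rodent members of the organic anion transporter family that lie on chromosome 19, had the largest increases. Slc22a30 had log2 signals of 9.71, 8.52, 9.55, 9.14 and 8.88 in Trp53(+/-) kidneys, against 5.63, 8.47, 6.60, 4.64 and 6.87 in Trp53(+/+) kidneys. Every Trp53(+/-) array was above every Trp53(+/+) array, but Trp53(+/+) replicate 2 lay only just below the lowest of them. The difference was 2.72 ± 0.41 (SE), a 6.57-fold higher level (adjusted p = 0.000495), and it was called in 10 of 10. Slc22a28 had 9.51, 8.62, 8.92, 8.88 and 8.64 in Trp53(+/-) kidneys, against 5.93, 8.37, 6.99, 4.52 and 6.25 in Trp53(+/+) kidneys. Again the genotypes did not overlap and the Trp53(+/+) arrays spread far more widely, and the level was 5.65-fold higher (adjusted p = 0.000578). In water-injected kidneys, Slc22a30 averaged 10.85 in Trp53(+/-) and 11.09 in Trp53(+/+) animals, so both genotypes lay below their controls after AAI. These transporters are close relatives, and probes of 1 may take up signal of another.

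Slc7a13, an amino acid transporter of the last proximal tubule segment, had 9.93, 8.42, 10.65, 9.68 and 9.59 in Trp53(+/-) kidneys, against 6.49, 8.26, 7.68, 6.65 and 7.0 in Trp53(+/+) kidneys. The groups did not overlap, and the level was 5.42-fold higher (log2 difference of 2.44 ± 0.36, adjusted p = 0.000369). Slc17a3, a phosphate and urate transporter, had 9.67, 8.95, 10.01, 9.53 and 9.42 in Trp53(+/-) kidneys, against 7.62, 8.61, 8.33, 7.39 and 8.22 in Trp53(+/+) kidneys. It was again higher in every Trp53(+/-) array than in any Trp53(+/+) array, and its level was 2.80-fold higher (adjusted p = 0.000369). Both genes were called in 10 of 10.

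Slc22a6 and Slc22a8 encode the organic anion transporters OAT1 and OAT3 of the basolateral membrane. Slc22a6 had 8.52, 8.58, 8.80, 8.42 and 7.81 in Trp53(+/-) kidneys, against 6.54, 7.87, 7.23, 6.79 and 7.78 in Trp53(+/+) kidneys. The lowest Trp53(+/-) array fell among the highest Trp53(+/+) arrays, and the level was 2.27-fold higher on average (adjusted p = 0.00324, called in 10 of 10). Slc22a8 had 9.89, 9.65, 9.94, 9.75 and 8.99 in Trp53(+/-) kidneys, against 7.35, 8.96, 8.18, 7.63 and 9.04 in Trp53(+/+) kidneys. The groups overlapped by 1 array, and the 2.66-fold higher level (adjusted p = 0.0192) was not called without Trp53(+/+) replicate 1 (adjusted p = 0.101), without Trp53(+/+) replicate 4 (0.0776), without Trp53(+/-) replicate 1 (0.0674) or without Trp53(+/-) replicate 3 (0.0711). Slc22a2, the organic cation transporter OCT2, was 2.62-fold higher (adjusted p = 0.00172). Slc22a7, the transporter OAT2, was 2.46-fold higher (adjusted p = 0.0145) and was not called without Trp53(+/+) replicate 1 (0.081) or Trp53(+/-) replicates 1 (0.0674) and 3 (0.0735).

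Lrp2 and Cubn encode megalin and cubilin, the brush border receptors through which filtered protein is taken up. Lrp2 had 10.04, 9.20, 9.90, 9.26 and 8.76 in Trp53(+/-) kidneys, against 7.66, 9.28, 8.68, 7.52 and 8.19 in Trp53(+/+) kidneys. Cubn had 9.12, 8.42, 9.10, 8.07 and 8.28 in Trp53(+/-) kidneys, against 6.93, 8.49, 7.45, 6.60 and 6.93 in Trp53(+/+) kidneys. For both receptors Trp53(+/+) replicate 2 lay within the Trp53(+/-) range and the other Trp53(+/+) arrays below it. Lrp2 was 2.24-fold higher (adjusted p = 0.0039) and Cubn 2.49-fold higher (adjusted p = 0.00163), each called in 10 of 10.

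**Figure D2:**
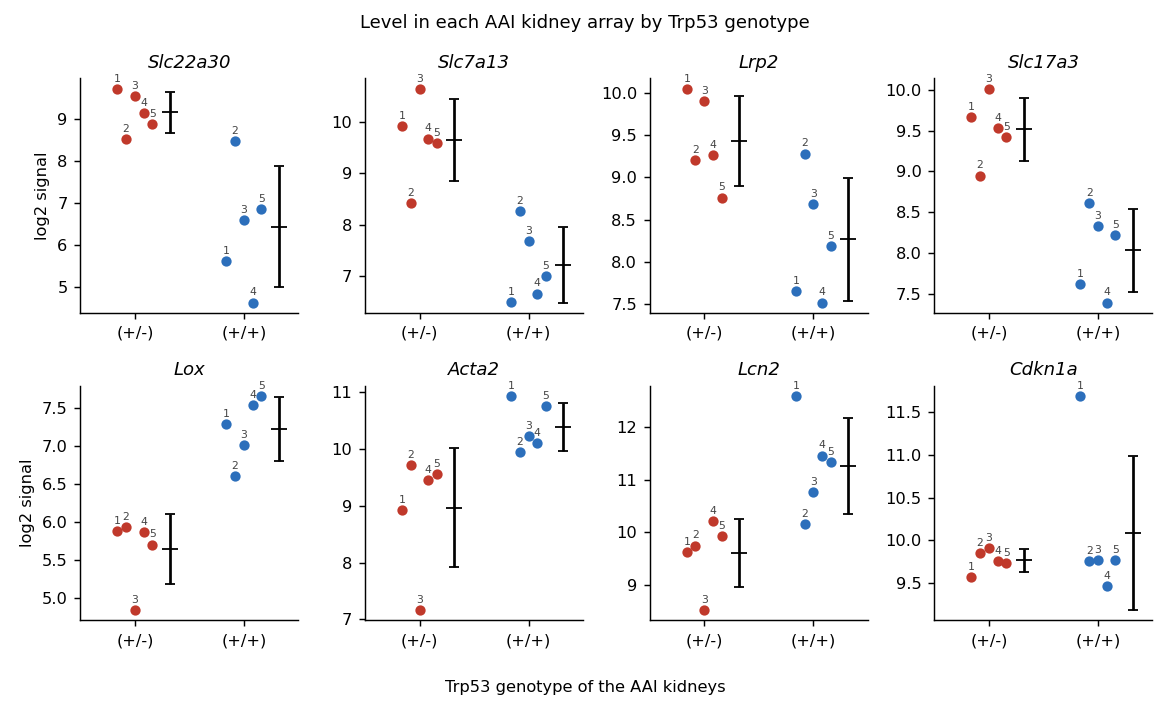
Log2 signal of 8 genes in each AAI kidney array, with Trp53(+/-) on the left and Trp53(+/+) on the right of each panel, numbers giving the replicate and the bar giving mean ± SD (n = 5). The transporters and Lrp2 are higher and Lox, Acta2 and Lcn2 lower in Trp53(+/-) kidneys, while Cdkn1a lies in 1 range apart from Trp53(+/+) replicate 1, at 11.69.

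Among 41 measured genes of proximal tubule uptake and transport, 19 were called higher and 0 lower, against 1.07% of all genes called higher. Their median difference was 0.71, against -0.01 for all genes, and all 41 differences were above 0. The members ranged from 0.03 (Slc6a19, a neutral amino acid transporter of the brush border) to 2.72 (Slc22a30). Other members that were called include Slc5a8, a sodium-coupled monocarboxylate transporter (2.87-fold, adjusted p = 0.019, not called without Trp53(+/+) replicates 1 or 4 or Trp53(+/-) replicates 1 or 3, at 0.0578 to 0.0972), and Slc3a1, a subunit of the cystine transporter (2.04-fold, adjusted p = 0.00614). Slc27a2, a fatty acid transporter, was 1.88-fold higher (adjusted p = 0.00606). Slco1a1, an organic anion transporting polypeptide, averaged 6.06 in Trp53(+/-) and 5.20 in Trp53(+/+) kidneys and was not called (adjusted p = 0.311). Of the 19 genes, 11 were called in all leave-out fits and the same number without Trp53(+/+) replicate 1, which had the lowest mean level of these genes. In the fit of 10 arrays alone 29 of the 41 had an unadjusted p under 0.05, against 2380 of all 22139 genes. The median was 0.55 without Trp53(+/+) replicate 1. In water-injected kidneys the median of these genes was -0.25 for Trp53(+/-) minus Trp53(+/+), with 0 called. Those controls lay in different cDNA batches, so that genotype and batch cannot be told apart there.

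Promoters are shown for 4 of the genes called higher because they hold letters that were more frequent in this group than elsewhere. HNF1 and HNF4 are transcription factors known for driving genes of the differentiated proximal tubule. The letters searched, on both strands, were GTTAAT, which is only a part of an HNF1 element, and CAAAGTCC, the core of an HNF4 element. The sequences are the 250 bases before the gene's start in RefSeq (GRCm38.p6), written 5′ to 3′ on the gene's strand, with matches to either motif in capitals. Slc22a6 lies at chr19:8617746-8617995 (plus strand), Slc22a8 at chr19:8592932-8593181 (plus strand), Hao2 at chr3:98893231-98893480 (minus strand) and Slc3a1 at chr17:85028097-85028346 (plus strand).
Slc22a6: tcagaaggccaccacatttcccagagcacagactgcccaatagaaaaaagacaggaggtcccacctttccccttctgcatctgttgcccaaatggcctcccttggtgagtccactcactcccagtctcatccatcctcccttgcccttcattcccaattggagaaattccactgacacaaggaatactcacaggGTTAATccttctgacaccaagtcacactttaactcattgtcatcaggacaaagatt
Slc22a8: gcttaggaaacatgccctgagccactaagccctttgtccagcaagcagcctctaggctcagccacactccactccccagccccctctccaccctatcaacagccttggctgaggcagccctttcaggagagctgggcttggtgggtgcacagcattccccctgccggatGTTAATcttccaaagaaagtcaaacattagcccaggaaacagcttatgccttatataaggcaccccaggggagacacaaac
Hao2: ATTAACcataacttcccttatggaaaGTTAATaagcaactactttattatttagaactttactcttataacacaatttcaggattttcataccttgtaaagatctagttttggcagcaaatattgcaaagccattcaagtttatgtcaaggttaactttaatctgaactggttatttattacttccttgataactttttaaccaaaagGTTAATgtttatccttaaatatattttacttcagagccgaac
Slc3a1: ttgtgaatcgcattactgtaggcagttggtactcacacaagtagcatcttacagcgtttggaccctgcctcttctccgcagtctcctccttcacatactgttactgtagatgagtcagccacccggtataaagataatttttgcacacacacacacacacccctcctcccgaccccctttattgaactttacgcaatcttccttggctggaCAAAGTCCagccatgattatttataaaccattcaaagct
The match began 56 bases before the start in Slc22a6, 81 bases before it in Slc22a8 and 39 bases before it in Slc3a1, while Hao2 held 3 matches, at 250, 224 and 42 bases. CAAAGTCC was found in 15 of 180 promoters of genes called higher (8.33%), in 0 of 71 of genes called lower and in 214 of 15691 of all genes (1.36%). GTTAAT was found in 23 of 180 (12.8%), 1 of 71 (1.41%) and 925 of 15691 (5.9%). Among the called proximal tubule transport genes with a promoter, GTTAAT was found in 2 of 17 and CAAAGTCC in 1 of 17. Among the called proximal tubule enzymes the counts were 2 of 10 and 1 of 10. Promoters were matched by symbol for 180 of 221 named genes called higher and 71 of 96 called lower, and the first entry was taken where a gene had several. As a comparison, the letters TGANTCA of AP-1 were found in 9 of 180 (5%), 6 of 71 (8.45%) and 999 of 15691 (6.37%). The CArG box of contractile genes was found in 3 of 180 (1.67%), 1 of 71 (1.41%) and 210 of 15691 (1.34%). The motifs were chosen after the called genes were known, and a match is not a binding site.

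Enzymes of the proximal tubule were also higher in part. Of 31 measured, 11 were called higher and 0 lower (1.07% of all genes called higher), with a median difference of 0.61, and 8 of the 11 were called in all leave-out fits. Akr1c14, a hydroxysteroid dehydrogenase that is not in this list, had 8.40, 7.02, 8.04, 7.38 and 7.81 in Trp53(+/-) kidneys, against 4.75, 6.66, 5.88, 5.38 and 5.26 in Trp53(+/+) kidneys. Keg1, a kidney acyltransferase, had 10.67, 9.97, 10.82, 10.58 and 10.38 in Trp53(+/-) kidneys, against 8.51, 10.19, 9.73, 7.70 and 8.46 in Trp53(+/+) kidneys. Akr1c14 did not overlap between genotypes and was 4.42-fold higher (adjusted p = 0.000369), whereas for Keg1 Trp53(+/+) replicate 2 reached the Trp53(+/-) range (2.96-fold, adjusted p = 0.00254). Hao2, a peroxisomal hydroxyacid oxidase and 1 of the genes with a promoter printed here, had 7.95, 7.29, 8.21, 7.53 and 7.27 in Trp53(+/-) kidneys, against 5.75, 7.30, 6.82, 6.10 and 6.21 in Trp53(+/+) kidneys. It too overlapped through Trp53(+/+) replicate 2 (2.32-fold, adjusted p = 0.00163). Mep1b, the beta subunit of the brush border protease meprin and also outside the list, had 7.83, 6.79, 8.03, 6.65 and 6.92 in Trp53(+/-) kidneys, against 4.67, 5.88, 6.04, 4.90 and 5.33 in Trp53(+/+) kidneys. The genotypes did not overlap, and the level was 3.68-fold higher (adjusted p = 0.00066).

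Further enzymes were higher in the same direction. Eci3, which isomerises fatty acyl chains for oxidation, was 2.91-fold higher (adjusted p = 0.000816), and Acsm3, a medium-chain acyl-CoA synthetase, was 2.88-fold higher (adjusted p = 0.0039). Dao, the oxidase of D-amino acids, was the only member of the enzyme list that was higher in every Trp53(+/-) array (log2 difference of 0.95, adjusted p = 0.00276). The steroid enzymes Akr1c21 (3.12-fold, adjusted p = 0.00173) and Hsd3b3 (2.96-fold, adjusted p = 0.00187) and the carboxylesterase Ces1f (2.65-fold, adjusted p = 0.00116) were also called. Dnase1, an endonuclease, was 4.25-fold higher (adjusted p = 0.0029), and Cyp7b1, an oxysterol hydroxylase, was 3.29-fold higher (adjusted p = 0.00785). Gatm, the first enzyme of creatine synthesis, was 2.23-fold higher (adjusted p = 0.0258), but its call was lost without Trp53(+/+) replicate 1 (0.119), 4 (0.106) or 5 (0.0953) and without Trp53(+/-) replicate 1 (0.117) or 3 (0.0535). The list had 4 members below 0, of which Cyp4a14, a fatty acid hydroxylase, lay lowest at -0.58, and none of them was called. Akr1c21, Hsd3b3, Ces1f, Dnase1 and Cyp7b1 are not members of that list, and Hsd3b3, Dnase1 and Cyp7b1 were picked out after their values were seen.

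Metabolic genes outside these lists had medians nearer 0. All 29 measured subunits of the respiratory chain had a difference above 0, with a median of 0.25, and 2 were called higher, against 1.07% of all genes. Those were Uqcrc1 of complex III (1.35-fold, adjusted p = 0.0236) and Ndufs8 of complex I (1.36-fold, adjusted p = 0.0378). Uqcrc1 was not called without Trp53(+/+) replicates 1, 3 or 5 or Trp53(+/-) replicates 1, 2 or 3 (0.0519 to 0.0917). Ndufs8 was not called without Trp53(+/+) replicates 1, 4 or 5 or Trp53(+/-) replicates 1, 3, 4 or 5 (0.0509 to 0.171). Among 31 genes of fatty acid oxidation and peroxisomes, 1 was called higher, a count near that 1.07%. This was Crot, which moves fatty acids out of peroxisomes (1.61-fold, adjusted p = 0.0187), and the median of the list was 0.15. Crot was not called without Trp53(+/+) replicate 1 or Trp53(+/-) replicates 1 or 3 (0.0855 to 0.102). Of 12 cholesterol synthesis genes, 2 were called higher, against the same 1.07%. One was Cyp51, a sterol demethylase (2.09-fold, adjusted p = 0.00324). The other was Hmgcs1, which makes HMG-CoA, with 8.72, 8.03, 8.77, 8.41 and 8.51 in Trp53(+/-) kidneys, against 7.25, 8.33, 7.81, 7.58 and 7.71 in Trp53(+/+) kidneys. Hmgcs1 overlapped in Trp53(+/+) replicate 2 and was 1.69-fold higher (adjusted p = 0.00626, called in 10 of 10). Of 20 genes of gluconeogenesis and glycolysis, 0 were called.

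Fibroblast and myofibroblast genes were the group with the lowest median among the 35 lists. Of 23 measured, 7 were called lower and 0 higher, against 0.479% of all genes called lower, and the median difference was -0.60. Lox, the enzyme that crosslinks collagen and elastin, had 5.88, 5.93, 4.84, 5.87 and 5.70 in Trp53(+/-) kidneys, against 7.29, 6.61, 7.01, 7.54 and 7.66 in Trp53(+/+) kidneys. The groups were well apart, Trp53(+/-) replicate 3 was the lowest array, and the level was 2.99-fold lower (log2 difference of -1.58 ± 0.26, adjusted p = 0.00132, called in 10 of 10). Acta2, the smooth muscle actin, had 8.93, 9.72, 7.17, 9.46 and 9.56 in Trp53(+/-) kidneys, against 10.93, 9.94, 10.23, 10.10 and 10.75 in Trp53(+/+) kidneys. Tagln, an actin-binding protein of contractile cells, had 9.01, 9.89, 7.62, 9.72 and 9.72 in Trp53(+/-) kidneys, against 11.16, 9.92, 10.21, 10.13 and 10.56 in Trp53(+/+) kidneys. Neither gene overlapped between genotypes, although the gap was narrow and Trp53(+/-) replicate 3 lay far below the other arrays. Acta2 was 2.68-fold lower (adjusted p = 0.0192) and Tagln 2.30-fold lower (adjusted p = 0.0158).

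Calls of these contractile genes rested on a few arrays. Acta2 was not called without Trp53(+/+) replicate 1 (adjusted p = 0.0885) or 5 (0.0602), nor without Trp53(+/-) replicate 1 (0.0595) or 3 (0.076, with a difference of -0.97). Tagln was not called without Trp53(+/+) replicate 1 (0.0859), nor without Trp53(+/-) replicate 1 (0.0593) or 3 (0.0505). Tpm2, a tropomyosin that is not a member of the fibroblast list, was called in 10 of 10. It had 8.95, 9.45, 8.34, 9.11 and 9.44 in Trp53(+/-) kidneys, against 10.37, 9.79, 10.12, 9.98 and 10.31 in Trp53(+/+) kidneys, with no overlap and a 2.08-fold lower level (adjusted p = 0.00589). The other list members called lower were Myl9, a myosin light chain (-0.75), Pdgfrb, a receptor of pericytes and fibroblasts (-0.62), and the growth factors Tgfb2 (-0.63) and Tgfb3 (-0.61). Myl9 was not called without Trp53(+/+) replicates 1, 4 or 5 or Trp53(+/-) replicate 3 (0.0582 to 0.0997), and Pdgfrb was called only without Trp53(+/+) replicate 2 or Trp53(+/-) replicate 2 (0.0506 to 0.157 in the others). Tgfb2 was not called without Trp53(+/+) replicates 1 or 5 or Trp53(+/-) replicates 2, 3 or 4 (0.0533 to 0.119), nor Tgfb3 without Trp53(+/+) replicates 1 or 5 or Trp53(+/-) replicates 1 or 3 (0.0756 to 0.131). Of the 23 genes, 15 had an unadjusted p under 0.05 in the fit of 10 arrays alone, against 2380 of all 22139 genes. In water-injected kidneys, where genotype and cDNA batch cannot be told apart, the median of these genes was 0.28, with 3 called higher in Trp53(+/-) animals. Of 10 measured smooth and skeletal muscle genes, 1 was called lower (0.479% of all genes), 3 differences were above 0 and the median was -0.08. Their mean level was 5.16 to 5.42 in Trp53(+/-) AAI arrays, against 5.50 to 5.67 in Trp53(+/+) AAI arrays. Whether the contractile genes differed in myofibroblasts or in smooth muscle was not tested.

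**Figure D3:**
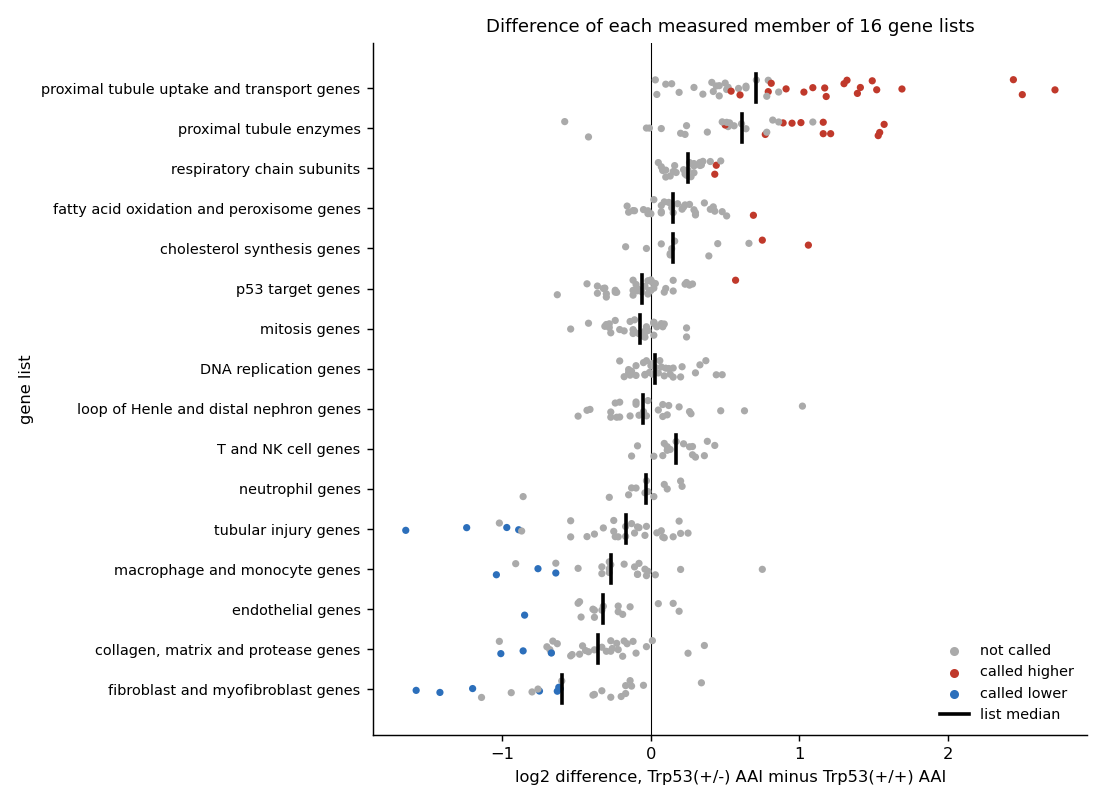
Log2 difference of each measured member of 16 gene lists, with called members in colour and the list median as a black bar. The proximal tubule lists lie to the right (medians of 0.71 and 0.61) and the fibroblast list to the left (median of -0.60), while the p53 target and cell division lists lie around 0.

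Matrix genes lay lower as well. Of 32 collagens, matrix proteins and proteases, 3 were called lower (0.479% of all genes) and 0 higher, and the median was -0.36. The called members were Fn1, which encodes fibronectin (2.01-fold lower, adjusted p = 0.0366), Mmp2, a gelatinase (1.81-fold, 0.0192), and Mmp14, the membrane protease that activates Mmp2 (1.60-fold, 0.0172). Fn1 was not called without Trp53(+/+) replicates 1, 3 or 5 or Trp53(+/-) replicates 1 or 3 (0.0702 to 0.185). Mmp2 and Mmp14 were not called without Trp53(+/+) replicate 1 (0.105 and 0.089) or Trp53(+/-) replicates 1 (0.0558 and 0.0631) or 3 (0.0964 and 0.0933). Of the 3, Mmp14 was lower in every Trp53(+/-) array. Col1a1, the main fibrillar collagen, averaged 7.74 ± 0.15 in Trp53(+/-) and 8.0 ± 0.12 in Trp53(+/+) kidneys (SD, n = 5 each) and was not called (adjusted p = 0.315). Receptor genes were also among the largest decreases without overlap, and the cells that express them were not determined. They were F2r, the thrombin receptor (1.89-fold lower, adjusted p = 0.00349), and Lpar1, a lysophosphatidic acid receptor (1.87-fold lower, adjusted p = 0.0198). Lpar1 was not called without Trp53(+/+) replicates 4 or 5 or Trp53(+/-) replicate 4 (0.0585 to 0.09).

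Tubular injury genes differed unevenly. Of 31 measured, 4 were called lower (0.479% of all genes) and 0 higher, and the median was -0.17. Lcn2, which encodes the injury marker lipocalin 2, had 9.62, 9.75, 8.53, 10.22 and 9.93 in Trp53(+/-) kidneys, against 12.59, 10.16, 10.77, 11.46 and 11.34 in Trp53(+/+) kidneys. The groups overlapped in 1 array each, Trp53(+/+) replicate 1 was highest, and the level was 3.15-fold lower (log2 difference of -1.65 ± 0.34, adjusted p = 0.00632). Without Trp53(+/+) replicate 1 the difference was -1.32 (adjusted p = 0.0407), and Lcn2 was called in 10 of 10. Havcr1, which encodes kidney injury molecule 1, had 11.43, 11.34, 11.76, 11.63 and 11.44 in Trp53(+/-) kidneys, against 13.28, 11.48, 11.51, 10.67 and 11.08 in Trp53(+/+) kidneys. It overlapped fully and was not called (log2 difference of -0.08, adjusted p = 0.988), and it was named after its values were seen.

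The other injury genes called lower were a cornified envelope protein, a chaperone and an annexin. Sprr2f, a small proline-rich protein of stressed epithelia, had 6.98, 7.57, 7.02, 7.93 and 7.74 in Trp53(+/-) kidneys, against 9.00, 8.31, 8.88, 8.28 and 8.99 in Trp53(+/+) kidneys, with no overlap (2.37-fold lower, adjusted p = 0.000369, called in 10 of 10). Its relatives Sprr2g (2.52-fold lower, adjusted p = 0.00319), Sprr2e (0.0351) and Sprr2i (0.0471) were also called lower, but near-identical copies of this family may share probe signal. Sprr2e was not called in 7 leave-out fits, those without Trp53(+/+) replicates 1, 3, 4 or 5 or Trp53(+/-) replicates 1, 3 or 4 (0.0544 to 0.144), and Sprr2i was called in none of the 10 (0.0555 to 0.125). Anxa1, an anti-inflammatory annexin, had 6.78, 6.76, 5.99, 7.23 and 6.66 in Trp53(+/-) kidneys, against 7.86, 7.39, 7.29, 8.06 and 7.66 in Trp53(+/+) kidneys, again apart (1.96-fold lower, adjusted p = 0.00784, called in 10 of 10). Clu, the secreted chaperone clusterin, had 10.27, 11.02, 9.61, 11.19 and 10.71 in Trp53(+/-) kidneys, against 12.14, 11.23, 11.41, 10.97 and 11.50 in Trp53(+/+) kidneys. Clu overlapped between genotypes, and its call (1.85-fold lower, adjusted p = 0.0294) was lost without Trp53(+/+) replicate 1 (0.141) or 5 (0.0679) and without Trp53(+/-) replicate 1 (0.113) or 3 (0.155). The keratin Krt18 averaged 7.46 in Trp53(+/-) and 8.33 in Trp53(+/+) kidneys without overlap, but was not called (adjusted p = 0.0846). Outside the injury list, the metallothionein genes Mt1 (1.71-fold lower, adjusted p = 0.00719) and Mt2 (1.52-fold lower, adjusted p = 0.0209), whose proteins bind zinc and copper, were also called. Mt2 was lost without Trp53(+/+) replicates 1, 4 or 5 or Trp53(+/-) replicates 1, 3 or 4 (0.053 to 0.09). Both belong to the 22 measured Nrf2 target genes, of which 2 were called lower (0.479% of all genes) and 1, Me1, higher (1.07% of all genes). Of the 22, 14 differences were above 0, and the median was 0.05.

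Of 23 measured macrophage genes, 3 were called lower (0.479% of all genes) and 0 higher, with a median of -0.27. Fcgr3, an IgG receptor, had 6.32, 6.46, 6.34, 6.36 and 6.66 in Trp53(+/-) kidneys, against 7.34, 6.67, 7.02, 7.02 and 7.27 in Trp53(+/+) kidneys. Itgam, the integrin CD11b, had 5.99, 6.16, 5.65, 6.52 and 6.18 in Trp53(+/-) kidneys, against 7.17, 6.70, 6.68, 6.85 and 6.87 in Trp53(+/+) kidneys. Neither overlapped, and Fcgr3 was called in 10 of 10 (1.55-fold lower, adjusted p = 0.00604) but Itgam (1.69-fold, adjusted p = 0.0267) was lost without Trp53(+/+) replicate 1 (0.111), 4 (0.0631) or 5 (0.0594) and without Trp53(+/-) replicate 1 (0.0878) or 3 (0.131). Mrc1, the mannose receptor, was 2.06-fold lower (adjusted p = 0.0383) and was not called without Trp53(+/+) replicates 1, 3, 4 or 5 or Trp53(+/-) replicates 1, 2 or 3 (0.0631 to 0.192). Adgre1, which encodes F4/80 and defines macrophages in mice, averaged 6.00 in Trp53(+/-) kidneys, against 6.08 in Trp53(+/+) kidneys (adjusted p = 0.969). The list's mean level per array was 5.89 to 6.70 in Trp53(+/-) kidneys, against 6.24 to 6.95 in Trp53(+/+) kidneys, so the groups overlapped. Ctsk, the protease cathepsin K, had 5.66, 6.05, 5.82, 5.99 and 5.60 in Trp53(+/-) kidneys, against 6.83, 6.76, 6.40, 6.68 and 6.56 in Trp53(+/+) kidneys. It was apart in every array (1.77-fold lower, adjusted p = 0.0172) and was 1 of the 4 genes called from the 10 arrays alone, although in the larger fit its call was lost without Trp53(+/+) replicate 1 (0.0687) or Trp53(+/-) replicates 1 (0.0646) and 3 (0.0512).

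Neutrophil (13 measured), T and NK cell (17), B cell (9), loop of Henle and distal nephron (27), podocyte (9), fat cell (8) and adrenal (8) genes had 0 calls, with medians between -0.18 and 0.17, and at 1.54% of all genes called these counts are near the background. Of 16 endothelial genes 1 was called lower (0.479% of all genes), Ehd3, a trafficking protein of the glomerular endothelium (1.81-fold, adjusted p = 0.0399), and their median was -0.32. The mean endothelial level was 6.44 to 6.70 in Trp53(+/-) kidneys, against 6.72 to 7.11 in Trp53(+/+) kidneys, close but without overlap. The mean T and NK cell level lay the other way, at 4.81 to 4.88 in Trp53(+/-) kidneys, against 4.54 to 4.75 in Trp53(+/+) kidneys, also without overlap. These means lie under a log2 of 5, the limit used here for dim clusters, so they say little about cell numbers. Ehd3 was not called without Trp53(+/+) replicates 4 or 5 or Trp53(+/-) replicates 1, 3, 4 or 5 (0.0637 to 0.171). The part of cell numbers in the fibroblast, macrophage and endothelial differences was not tested.

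Of 37 measured targets of p53, 1 was called higher and 0 lower, a count near the 1.54% called over all genes, and the median was -0.06. Cdkn1a, which encodes the cell cycle inhibitor p21, had 9.57, 9.85, 9.91, 9.76 and 9.73 in Trp53(+/-) kidneys, against 11.69, 9.76, 9.77, 9.46 and 9.77 in Trp53(+/+) kidneys. Apart from Trp53(+/+) replicate 1 the arrays lay within the same narrow range (log2 difference of -0.32, adjusted p = 0.838, and 0.08 without that array). Mdm2, the ubiquitin ligase that degrades p53, had 9.51, 9.69, 9.92, 9.65 and 9.59 in Trp53(+/-) kidneys, against 10.64, 9.58, 9.52, 9.07 and 9.40 in Trp53(+/+) kidneys. The cyclin G1 gene Ccng1 had 10.12, 10.20, 10.58, 10.30 and 10.24 in Trp53(+/-) kidneys, against 10.99, 10.26, 10.13, 9.68 and 9.93 in Trp53(+/+) kidneys. Both genes overlapped and were not called (adjusted p = 0.983 and 0.943).

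Zfp365 and Cgref1 had the lowest and the highest difference among the p53 targets. Zfp365, a genome stability factor, had 5.66, 6.39, 6.74, 6.05 and 6.42 in Trp53(+/-) kidneys, against 7.48, 6.73, 6.74, 6.80 and 6.68 in Trp53(+/+) kidneys. It was 1.55-fold lower and just outside the threshold (adjusted p = 0.0554), and was called without Trp53(+/+) replicate 2 (0.0479) or Trp53(+/-) replicate 3 (0.0347). Cgref1, a growth regulator, had 7.72, 7.80, 7.89, 7.75 and 7.48 in Trp53(+/-) kidneys, against 6.99, 7.55, 7.19, 6.78 and 7.30 in Trp53(+/+) kidneys. It was called 1.48-fold higher (adjusted p = 0.0243), but not without Trp53(+/+) replicate 1 (0.0978) or 4 (0.108) or without Trp53(+/-) replicate 1 (0.0655), 3 (0.0953) or 4 (0.0519). In AAI-exposed Trp53(-/-) kidneys Ccng1 averaged 7.86 and Mdm2 8.57, against 10.29 and 9.67 in Trp53(+/-) kidneys and 10.20 and 9.64 in Trp53(+/+) kidneys. The Trp53(-/-) arrays lay in a different cDNA batch from all Trp53(+/-) and most Trp53(+/+) AAI arrays. Genotype and batch therefore cannot be told apart in these values.

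At 1.54% of all genes called, lists of this length would hold few or no calls, so counts of 0 are no result about them. Such lists were mitosis (33 measured, median of -0.07), DNA replication (33, 0.03), DNA repair (28, 0.02), apoptosis (27, -0.09) and the unfolded protein response (24, -0.03), each with 0 calls. Mki67, which marks dividing cells, averaged 7.22 ± 0.55 in Trp53(+/-) and 7.34 ± 0.71 in Trp53(+/+) kidneys (SD, n = 5 each, adjusted p = 0.954). Myc averaged 6.67 in Trp53(+/-) kidneys, against 6.60 in Trp53(+/+) kidneys (adjusted p = 0.978). Enzymes that activate or detoxify AAI had 0 calls among 11 and a median of 0.00. Among the immediate early genes, Ier3, an early response gene, was 1.62-fold lower (adjusted p = 0.0177), but not called without Trp53(+/+) replicates 1 or 4 or Trp53(+/-) replicate 1 (0.0551 to 0.0776).

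The animals of a genotype also varied among themselves in the transport and fibroblast genes. The mean level of the 41 transport genes was 8.66, 8.04, 8.51, 8.23 and 8.06 in Trp53(+/-) kidneys, against 6.87, 8.02, 7.65, 7.0 and 7.58 in Trp53(+/+) kidneys. The mean of the 23 fibroblast genes was 7.08, 7.44, 6.60, 7.47 and 7.42 in Trp53(+/-) kidneys, against 8.09, 7.61, 7.77, 7.57 and 7.79 in Trp53(+/+) kidneys. The genotypes did not overlap in either list, but Trp53(+/+) replicate 2 came just below the lowest Trp53(+/-) array for the transport genes. Trp53(+/-) replicates 1 and 3 had the highest transport and the lowest fibroblast levels, and Trp53(+/+) replicate 1 the lowest transport and the highest fibroblast level. The mean of the tubular injury genes was 7.74, 7.97, 7.77, 8.05 and 7.96 in Trp53(+/-) kidneys, against 8.88, 7.98, 8.15, 7.93 and 8.10 in Trp53(+/+) kidneys, and here Trp53(+/+) replicates 2 and 4 lay within the Trp53(+/-) range. That animal was also highest for the p53 targets, at 7.61, against 7.06 to 7.14 in the other Trp53(+/+) arrays and 7.06 to 7.24 in Trp53(+/-) arrays.

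**Figure D4:**
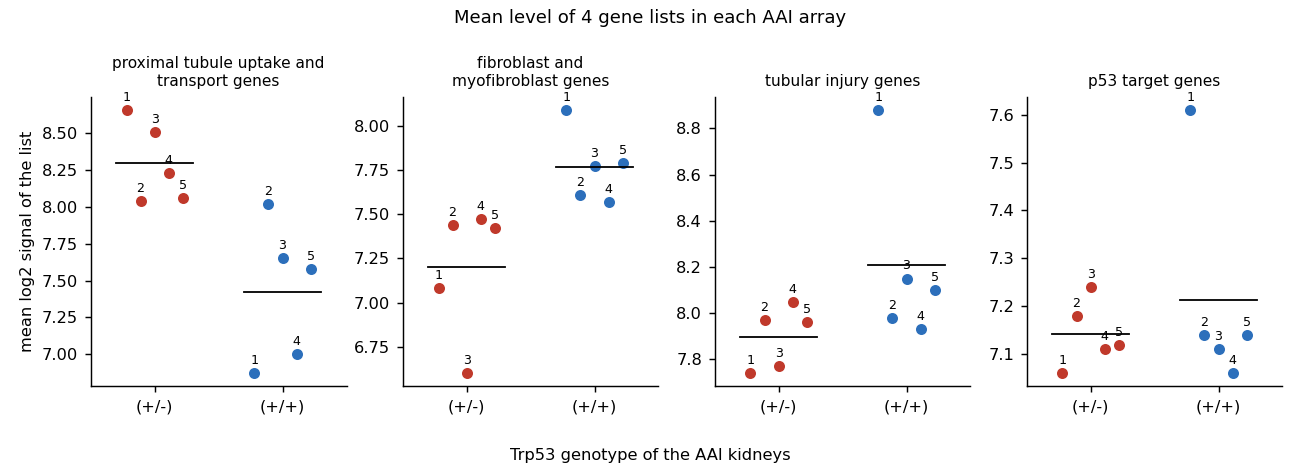
Mean log2 signal of 4 gene lists in each AAI array, with Trp53(+/-) on the left and Trp53(+/+) on the right of each panel, numbers giving the replicate and the line giving the group mean. The transport and fibroblast lists do not overlap between genotypes, and Trp53(+/+) replicate 1 stands at 8.88 for the injury genes and 7.61 for the p53 targets.

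These animals set the size of the call list. Without Trp53(+/+) replicate 1, 135 genes were called, of which 128 were among the 342, and without Trp53(+/-) replicates 1 and 3 the counts were 133 and 140. Without Trp53(+/+) replicate 4 or 5 they were 194 and 222, and without replicate 2, the Trp53(+/+) array nearest to the Trp53(+/-) arrays in the transport genes, 510. cDNA was made in 2 batches, and batch 1 held the 5 Trp53(+/-) and 4 of the 5 Trp53(+/+) AAI samples, so 1 Trp53(+/+) AAI array of unknown number was in batch 2. A batch term gave the same counts as leaving out that array, whichever it was, because every other group lay wholly in 1 batch. It is therefore no further check. Only the count without the array that was in batch 2 is a within-batch value, and which count that is was not known.

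**Figure D5:**
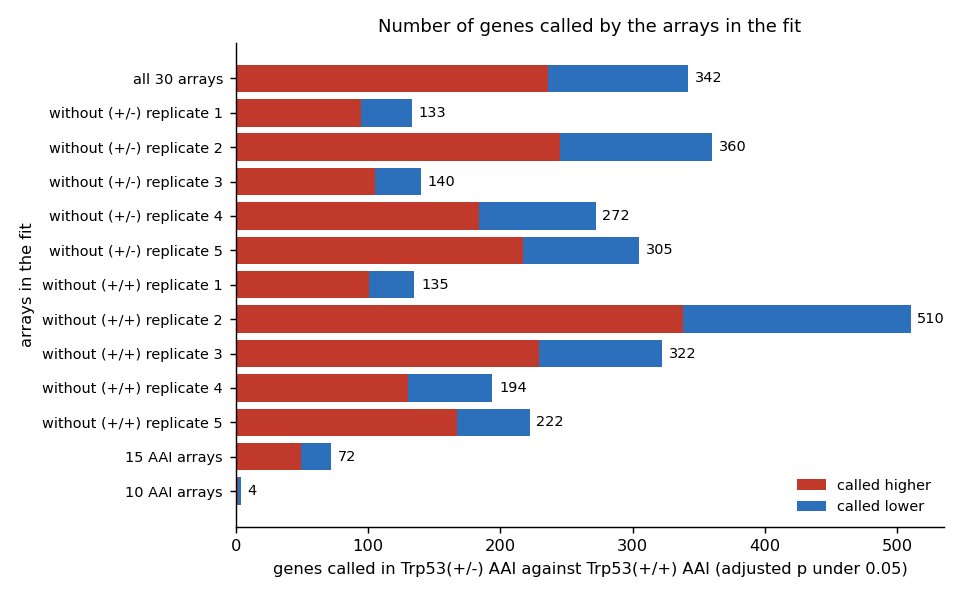
Number of genes called (horizontal) for each set of arrays in the fit, split into genes higher and lower in Trp53(+/-) AAI kidneys. The counts run from 133 to 510 when 1 array is left out, against 342 with all 30 arrays and 4 with the 10 arrays alone.

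AAI-exposed Trp53(-/-) kidneys set against their own water controls share no array with the comparison of the 2 genotypes. In them AAI lowered 224 and raised 2 of the 236 genes called higher in Trp53(+/-) kidneys, and it raised 101 and lowered 0 of the 106 called lower. Over all genes AAI lowered 10.9% and raised 15.5% there, 26.4% in total. The AAI effect itself differed between Trp53(+/-) and Trp53(+/+) animals by the interaction term for 1.84% of all genes. Nearly all genes that separated the 2 genotypes were also genes called for AAI in kidneys without p53. This is a description and no independent support. Slc22a30 averaged 9.16 in Trp53(+/-), 5.97 in Trp53(-/-) and 6.44 in Trp53(+/+) AAI kidneys. Lcn2 averaged 9.61 in Trp53(+/-), 12.58 in Trp53(-/-) and 11.26 in Trp53(+/+) AAI kidneys. The Trp53(-/-) AAI arrays lay in a different cDNA batch from all Trp53(+/-) and most Trp53(+/+) AAI arrays, so batch may enter these levels. Among water-injected kidneys 52 genes (0.235%) differed between Trp53(+/-) and Trp53(+/+), and 1 of them was among the 342, in the opposite direction. That gene was Lcn2, with 6.48 in Trp53(+/-) and 4.65 in Trp53(+/+) water kidneys (adjusted p = 0.0157).

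The position of the called genes was counted around the targeted locus. Within 10 Mb on each side of Trp53 on chromosome 11, 363 genes were tested and 3 were called, all higher in Trp53(+/-) kidneys, against 1.54% called over all genes, which at this number of genes gives no result about the locus. They were Pipox, a peroxisomal oxidase (2.03-fold, adjusted p = 0.00163), Slc47a1, the proton-coupled exporter MATE1 (1.61-fold, adjusted p = 0.0192), and Tmigd1, an adhesion protein of kidney epithelium (1.91-fold, adjusted p = 0.00784). Slc47a1 was not called without Trp53(+/+) replicates 1 or 4 or Trp53(+/-) replicates 1, 3 or 4 (0.0544 to 0.09). These 3 genes were named after their values were seen, as were Ctsk, Sprr2g, Sprr2e, Sprr2i, Col1a1, Adgre1, Mki67, Mdm2, Ccng1, Slc6a19 and Cyp4a14. The share of named genes called was 0.949% on chromosome 11 and ranged up to 3.48% on chromosome 3, where the Sprr2 and Hsd3b clusters lie.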

How the data were processed

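Kidney RNA of 30 male mice was measured on Clariom S arrays, 1 animal per array. The deposited values are log2 signals that the authors made by robust multi-array averaging (RMA: background correction, quantile normalization and 1 value per transcript cluster) in the Transcriptome Analysis Console, with a version not given in the sources used here. RMA forces the arrays to 1 distribution, so a change in total RNA cannot be seen. Scanner intensities were not used here, and the number of arrays limits the precision. Of 22206 transcript clusters, 67 that shared a symbol with another cluster were left out, which gave 22139 tested. Symbols came from the platform annotation (2634 clusters had none).

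Group means of all 6 groups (5 arrays each) were fitted with limma 3.58.1 in R 4.3.3 (statmod 1.5.0, 24 residual degrees of freedom), with the two-sided contrast Trp53(+/-) AAI minus Trp53(+/+) AAI and Benjamini-Hochberg adjustment over 22139 genes. Each group was compared as labelled, and p-values measure the spread between animals. Lists (35, naming 800 genes) were described by counts and medians with no set test. Genes named were the 12 largest increases and decreases called without overlap, up to 5 members of each list with the smallest p, the genes the study names, and called members of lists above the share over all genes. In total 220 genes met this rule, and 48 others were added after their values were seen. The members and lists were chosen with earlier results of these data known. The fit was tested on simulated data: of 50 genes changed by a log2 of 0.6, 29 were recovered, and 49 of 50 at 0.9, 50 at 1.2 and 50 at 2, with 7 false calls. The simulation gave all groups the same spread. It therefore does not cover the larger spread that the called genes had in AAI-exposed kidneys. Alternatives were other sets of arrays, each array left out, a filter on dim clusters (mean log2 under 5), quantile normalization again, median centring, array weights, a trended prior, a block for the replicate number, cDNA batch terms and the methods' test.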

Additional observations from a re-analysis of the deposited data

Results flagged for a closer look

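Single arrays stood far from the other 4 of their group in 6 of 70 list levels and 3 of 60 gene levels examined by Dixon's test, and chance flags about 1 in 20 groups. Trp53(+/+) replicate 1 was the highest of its group for the p53 target genes (7.61), the tubular injury genes (8.88), Cdkn1a (11.69) and Zfp365 (7.48). Trp53(+/-) replicate 3 was the lowest of its group for the mitosis genes (5.56), the endothelial genes (6.44) and Lox (4.84). Trp53(+/-) replicate 1 was highest for gluconeogenesis and glycolysis genes (7.86), and Trp53(+/+) replicate 4 for fat cell genes (7.45). Both Trp53(+/+) replicate 1 and Trp53(+/-) replicate 3 were among the arrays whose removal lowered the number of calls most.

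The AAI effect, each genotype against its own water controls, differed between Trp53(+/-) and Trp53(+/+) by the interaction term (limma, adjusted over all genes) for 24 of the 30 genes given by array in the report. Most of these genes were chosen for their difference between AAI-exposed genotypes, which is part of the interaction term, so this count is a description and no independent support. Over all genes the term passed for 408 of 22139 (1.84%). Those controls lay in different cDNA batches, so genotype and batch cannot be told apart in these values. For the transporters the effect in Trp53(+/-) minus that in Trp53(+/+) was 2.96 for Slc22a30, 2.87 for Slc22a28, 3.0 for Slc7a13, 1.94 for Slc17a3, 1.9 for Slc22a6, 1.54 for Lrp2 and 1.61 for Cubn on the log2 scale. For enzymes it was 2.33 for Akr1c14, 2.32 for Mep1b, 1.83 for Keg1, 1.63 for Hao2 and 1.04 for Hmgcs1. Contractile and matrix genes had -2.01 for Lox, -2.04 for Acta2, -1.80 for Tagln and -1.37 for Tpm2. Injury genes had -3.48 for Lcn2, -1.35 for Sprr2f, -1.45 for Clu and -1.39 for Anxa1. Myeloid and protease genes had -1.06 for Itgam and -1.02 for Ctsk, and the p53 targets had -1.09 for Zfp365 and 0.76 for Cgref1. The adjusted p of these 24 values ran from 0.000346 (Lcn2) to 0.037 (Ctsk).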

How the results depend on the processing

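No named called gene turned its direction under any alternative run, but the number of calls did not hold. With the 10 arrays alone, against 342 genes called with 30, 4 were called, 2 higher and 2 lower, 3 of them by 2-fold or more, with 2 list members and 1 proximal tubule gene. With 15 AAI arrays, an alternative chosen after seeing the data, 72 were called, 49 higher and 23 lower, 34 by 2-fold or more, with 14 list members and 9 proximal tubule genes. Of 113 named called genes, 4 remained called with 10 arrays, 34 with 15, 113 without dim clusters, 112 after quantile normalization again, 109 with centring or array weights and 102 with a trended prior. Leaving out 1 array gave 133 to 510 genes, 95 to 338 higher, 34 to 172 lower, 53 to 138 by 2-fold or more, 30 to 84 list members (62 with all arrays) and 19 to 38 proximal tubule genes (30). With a cDNA batch term, the unlabelled array was taken in turn as Trp53(+/+) 1, 2, 3, 4 and 5. The genes called were 135, 510, 322, 194 and 222, the same counts as without that array. Higher genes then numbered 101 and 130 for arrays 1 and 4, and lower genes 34, 172, 64 and 55 for arrays 1, 2, 4 and 5. With array 1 or 2 in batch 2, 55 and 138 genes passed by 2-fold or more, and with array 1, 31 list members and 19 proximal tubule genes.

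At an adjusted p under 0.01, 115 genes were called. At an unadjusted p under 0.05 with a 2-fold change, 95 passed in limma and 89 by the methods' test, an analysis of variance, which after Benjamini-Hochberg called 0 genes while 2227 had an unadjusted p under 0.05. The replicate numbers did not pair the samples, since same-numbered arrays correlated at -0.2 to -0.007 in their deviations. With the replicate block on the 10 arrays, limma called 0 genes, higher or lower, of any list (2076 at an unadjusted p under 0.05). Of 420 list medians recomputed, 2 moved beyond the spread, T and NK cell genes to 0.23 without Trp53(+/-) replicate 1 and red blood cell genes to -0.04 without Trp53(+/-) replicate 4.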
